A study of Mus musculus with 2 samples.

Results

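Superoxide source and removal genes were followed through the immune cells of mouse pancreatic islets. The source genes were Cybb, Cyba, Ncf1, Ncf4 and Rac2, which encode subunits of the phagocyte NADPH oxidase NOX2, and the removal genes were Sod1, Sod2 and Cat, which encode superoxide dismutases and catalase. These 8 genes were chosen by symbol from the 32285 genes of the deposited matrix, and each symbol had 1 row. The 5 source and 3 removal genes were set against each other in macrophages, lymphocytes and dendritic cells, in clusters of macrophages, and along the surface level of CD9. CD9 is a tetraspanin of the cell membrane that was read with an oligonucleotide-tagged antibody.

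The cells came from islets of 6 to 8 wild-type (WT) male C57BL/6J mice, pooled into 1 sample and read as 2 libraries (mRNA and antibody-derived tags, ADT). Live cells (DAPI-) that stained for CD45 and not for Epcam were sorted and labelled with tagged antibodies to CD9 and to CD206, the mannose receptor encoded by Mrc1. The design text names the CD9 antibody alone and describes the mice as myeloid WT. The age of the mice is not stated. With 1 pooled sample no difference has a replicate check, so no test was made and every interval below covers counting error only.

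NOX2 is a membrane enzyme that moves electrons from NADPH in the cytosol to oxygen on the far side of the membrane and so makes superoxide. Cybb encodes its catalytic subunit gp91phox and Cyba its membrane partner p22phox. Ncf1 (p47phox, the organiser) and Ncf4 (p40phox) are cytosolic subunits that join the membrane pair on activation, together with a Rac GTPase, of which Rac2 is the form typical of blood cells. Sod1, in the cytosol, and Sod2, in the mitochondrial matrix, turn superoxide into hydrogen peroxide, which catalase splits into water and oxygen in peroxisomes. Sod2 is also a known target of NF-kB.

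The matrix held 2237 barcodes with a median of 19352 RNA UMIs (unique molecular identifiers, counts of captured transcript molecules; quartiles 13191 and 24852), and 2175 cells were kept. Macrophages were the cells with at least 2000 C1qa, C1qb and C1qc UMIs per 1000000 UMIs of the cell (CPM), 1792 cells or 82.4% of the kept cells (95% interval 80.7 to 84.0%). They held a median of 6927 C1q CPM. Lymphocytes were cells with T (75), NK (34) or B cell (29) markers, and dendritic cells were 12 cDC1-like, 28 Cd209a-high and 11 cycling dendritic-like cells, all under that level of C1q. Another 17 monocyte-like, 8 ILC2-like, 42 endocrine-like and 13 endothelial-like cells were named, and 114 cells under the C1q level stayed unnamed. The gate took CD45+ Epcam- cells, so these 42 and 13 cells passed it against their type.

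Macrophage markers other than C1q set the macrophage-like clusters apart from lymphocytes, and much less from other myeloid cells. Each of 9 macrophage-like clusters passed 11 of 12 macrophage markers other than C1q, the missing one being Mertk, and these clusters held 1603 of the 1792 macrophages. Passing these markers was also part of how the clusters were named, so the count is no independent support for the name. The T and B cell-like clusters passed 0 and 1 of the 12, but the dendritic and the monocyte-like cluster each passed 10, so the label rests on C1q against these. A further 165 came from 2 clusters of low depth that had no name, and 19 from the dendritic cluster. The 2 unnamed clusters passed 9 and 4 of the 12 markers. Only 38 cells lay within 20% of the C1q threshold. For the 18 just inside it and the 20 just outside it, Cyba had 859 CPM (753 to 976) against 525 CPM (429 to 637) and Sod1 36.4 CPM (17.5 to 67.0) against 122 CPM (78.4 to 182). The intervals of the other 6 genes overlapped, with 725 against 704 CPM of Cybb, 262 against 326 CPM of Sod2, 109 against 56.1 CPM of Ncf4, 109 against 86.7 CPM of Ncf1, 43.7 against 51.0 CPM of Rac2 and 58.3 against 56.1 CPM of Cat. The 28 Cd209a-high dendritic-like cells also carried markers of migratory dendritic cells (Ccr7, Ccl22, Il4i1), so they were not called cDC2. The cDC1-like cells carried Ccr7, Ccl22 and Il4i1 too, with Socs2 and Cd40, so these markers were not particular to the Cd209a-high cells.

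Because depth differs between classes (medians of 20200 RNA UMIs in macrophages, 8974 in lymphocytes and 24262 in dendritic cells), levels are given as CPM of the class. On this scale the median gene had a log2 ratio of -0.56 for macrophages over lymphocytes, -0.13 for macrophages over dendritic cells, 0.26 for macrophages over monocyte-like cells and 0.10 for the highest over the lowest CD9 decile. A gene counted as higher or lower when the ratio of its levels passed 1.5-fold with at least 20 UMIs in the 2 sums.

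Macrophages carried more mRNA of 4 of the 5 oxidase genes than lymphocytes, and the fifth, Rac2, went the other way. Cybb differed most, at 1038 CPM in macrophages against 65.2 CPM in lymphocytes, a ratio of 15.9 (95% interval 12.9 to 19.9). Of the removal genes, Sod2 was 4.12-fold higher (3.45 to 4.96) and Cat 1.73-fold higher (1.27 to 2.43), and Sod1 did not pass 1.5-fold at 1.10 (0.884 to 1.39). The Sod1 ratio depended on the scaling, and was 2.29 for mean UMIs per cell and 2.04 with median-of-ratios scaling. In all, 6 of the 8 genes were higher and 1 was lower, against a background in which 26.4% of 13270 genes were higher, 49.2% were lower and 75.6% passed 1.5-fold either way. Under those 2 scalings 7 of the 8 genes were higher and 0 were lower, since Sod1 gained and Rac2 lost its call.

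The 3 genes with the largest ratios over lymphocytes were Cybb, Ncf1 and Sod2, and their promoters are shown for that reason. Each line runs from 250 bases before the annotated transcription start to 30 bases after it (RefSeq, build GRCm38.p6). Capitals mark the letters GAGGAA, the core to which the macrophage factor PU.1 binds, and GGGCGG, the core bound by Sp1, each on either strand and with no overlap between the 2 motifs. Cybb is at chrX:9469295-9469574 on the minus strand, a start inside the gene's annotated span, Ncf1 at chr5:134229596-134229875 on the minus strand and Sod2 at chr17:13007589-13007868 on the plus strand.
Cybb: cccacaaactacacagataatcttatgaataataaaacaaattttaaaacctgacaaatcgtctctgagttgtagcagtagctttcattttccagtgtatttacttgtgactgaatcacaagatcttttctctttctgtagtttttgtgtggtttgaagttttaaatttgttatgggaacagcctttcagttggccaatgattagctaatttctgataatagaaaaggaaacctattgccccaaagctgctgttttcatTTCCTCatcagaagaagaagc
Ncf1: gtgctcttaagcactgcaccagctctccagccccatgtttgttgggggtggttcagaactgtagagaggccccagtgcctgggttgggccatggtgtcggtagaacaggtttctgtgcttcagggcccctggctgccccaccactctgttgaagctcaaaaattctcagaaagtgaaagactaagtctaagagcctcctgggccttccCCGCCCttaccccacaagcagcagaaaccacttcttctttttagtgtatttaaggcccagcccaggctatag
Sod2: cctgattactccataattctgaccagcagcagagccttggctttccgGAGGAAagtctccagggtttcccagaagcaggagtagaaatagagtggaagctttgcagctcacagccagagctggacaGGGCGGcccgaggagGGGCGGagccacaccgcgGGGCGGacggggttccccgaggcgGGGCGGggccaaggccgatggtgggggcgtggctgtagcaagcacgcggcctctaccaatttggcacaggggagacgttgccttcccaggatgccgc
The table held 6 of the 8 genes (Cybb, Cyba, Ncf1, Sod1, Sod2 and Cat). GAGGAA was found in 3 of the 6 and in 26.0% of all 32851 mouse promoters of this length, and GGGCGG in 5 of the 6 and in 34.7% of all. The Cybb window held the PU.1 core 10 bases after the start and no Sp1 core, and its GC content of 34.3% was the lowest of the 6, against a median of 52.5% over all promoters. The Sod2 window held 4 Sp1 cores and a PU.1 core 203 bases before the start. The letters CCAAT were found in 4 of the 6 (36.1% of all promoters) and TATAAA in Sod1 alone (13.1% of all). These matches describe the letters in the windows and do not show binding.

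Among the membrane pair, Cybb was near universal in macrophages, with a UMI in 97.1% of cells and a median of 18 UMIs per cell (quartiles 10 and 28). Its levels in the other classes lay in steps. Monocyte-like cells had 1591 CPM, Cd209a-high dendritic-like cells 506 CPM, B cell-like cells 248 CPM, cycling dendritic-like cells 216 CPM and cDC1-like cells 39.3 CPM. Lower still were T cell-like cells, with 11.3 CPM (8 UMIs), and NK cell-like cells, with 6.16 CPM (2 UMIs). In that order the intervals of B cell-like and cycling dendritic-like cells overlapped, and so did those of cDC1-like (20.9 to 67.3 CPM), T cell-like (4.86 to 22.2 CPM) and NK cell-like cells.

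The low counts in T and NK cell-like cells were set beside other macrophage genes, a gauge of macrophage mRNA free in the suspension. The levels were of like size, and the part of free RNA in the Cybb counts was not tested. In T and NK cell-like cells Cybb stood at 1.09% and 0.593% of its macrophage level. C1qa, C1qb and C1qc stood at 0.803% to 0.930% in T cell-like and 0.784% to 1.41% in NK cell-like cells. C1q also chose the classes, so its low level there was in part set by the rule. Of Apoe, Lyz2, Ctss, Adgre1, Csf1r and Cd68, which did not choose them, levels ran from 0.511% (Lyz2) to 3.15% (Adgre1) in T cell-like cells. In NK cell-like cells they ran from 0.447% (Lyz2) to 2.27% (Cd68). In the 42 endocrine-like cells Cybb stood at 0.937% of the macrophage level, on 20 UMIs of which 10 came from 1 cell. B cell-like cells stood at 23.9% for Cybb, while their C1q genes stood at 0.693% to 1.09%. The other macrophage genes stood there at 0.959% (Csf1r) to 7.26% (Ctss). With each cell thinned to 3000 UMIs, a Cybb UMI was seen in 90.5% of macrophages, 44.0% of B cell-like, 4.17% of T cell-like and 0 of 41 endocrine-like cells, which allows a share of cells with a UMI of up to 7.32%. The ratio of macrophages over lymphocytes therefore rested on the mix of lymphocytes. It was 107 without the B cell-like cells and 8.30 without the T cell-like cells.

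Cyba, the partner that holds gp91phox in the membrane, had a flatter profile. It had 887 CPM in macrophages and 312 CPM in lymphocytes, a ratio of 2.84 (2.58 to 3.14). Among lymphocytes it was low in T cell-like cells, at 237 CPM, and in NK cell-like ones, at 354 CPM. There it stood at 26.7% and 39.9% of the macrophage level, so Cyba mRNA was present in cells with few Cybb UMIs. Monocyte-like cells were highest with 1339 CPM, and Cd209a-high dendritic-like cells, with 899 CPM, had an interval (828 to 975 CPM) that overlapped that of macrophages (877 to 897 CPM).

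Ncf1 and Ncf4, the cytosolic subunits, separated phagocytes from lymphocytes to different degrees. Ncf1 had 144 CPM in macrophages against 24.4 CPM in lymphocytes, a ratio of 5.91 (4.20 to 8.59), and within lymphocytes B cell-like cells had 76.3 CPM, T cell-like cells 8.45 CPM (6 UMIs) and NK cell-like cells 9.24 CPM (3 UMIs). Without the B cell-like cells the ratio was 16.6 and without the T cell-like cells 3.42. Ncf4 had 128 CPM in macrophages against 50.4 CPM in lymphocytes, a ratio of 2.53 (1.99 to 3.27), and 44.5, 47.9 and 61.6 CPM in B, T and NK cell-like cells, whose intervals overlapped. Ncf4 mRNA was thus spread evenly over lymphocytes, while Cybb and Ncf1 mRNA lay mostly in the B cell-like cells, which held 78 of the 88 Cybb UMIs and 24 of the 33 Ncf1 UMIs.

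Rac2 was the one member that was lower in macrophages than in lymphocytes. It had 112 CPM (109 to 116) in macrophages against 292 CPM (264 to 322) in lymphocytes, a ratio of 0.385 (0.347 to 0.428). T, NK and B cell-like cells held 294, 323 and 254 CPM, with overlapping intervals. Per cell, without scaling to CPM, the ratio was 0.801 and did not pass 1.5-fold. Rac1, the widely expressed GTPase that can serve the same oxidase, was within 1.5-fold, at 264 CPM in macrophages and 190 CPM in lymphocytes (1.39).

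Sod2 set macrophages and monocyte-like cells apart from every other named class. It had 372 CPM in macrophages and 912 CPM in monocyte-like cells, and between 67.6 and 128 CPM in T, NK and B cell-like, ILC2-like, endothelial-like and the 3 dendritic-like groups. Macrophages over lymphocytes gave 372 against 90.4 CPM, and macrophages over dendritic cells 372 against 90.8 CPM, so the ratios were 4.12 and 4.10. Sod1 ran differently. It had 66.2 CPM in macrophages, between 115 and 141 CPM in the dendritic-like groups, and, among lymphocytes, 88.7 CPM in the T, 40.0 CPM in the NK and 15.9 CPM (5 UMIs) in the B cell-like cells. Against lymphocytes without the T cell-like cells the Sod1 ratio was 2.35. Cat was a low message throughout, with 51.3 CPM in macrophages and a median of 0 UMIs per macrophage. Its intervals in NK cell-like, cDC1-like, Cd209a-high and B cell-like cells overlapped that of macrophages (49.0 to 53.7 CPM).

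**Figure D1:**
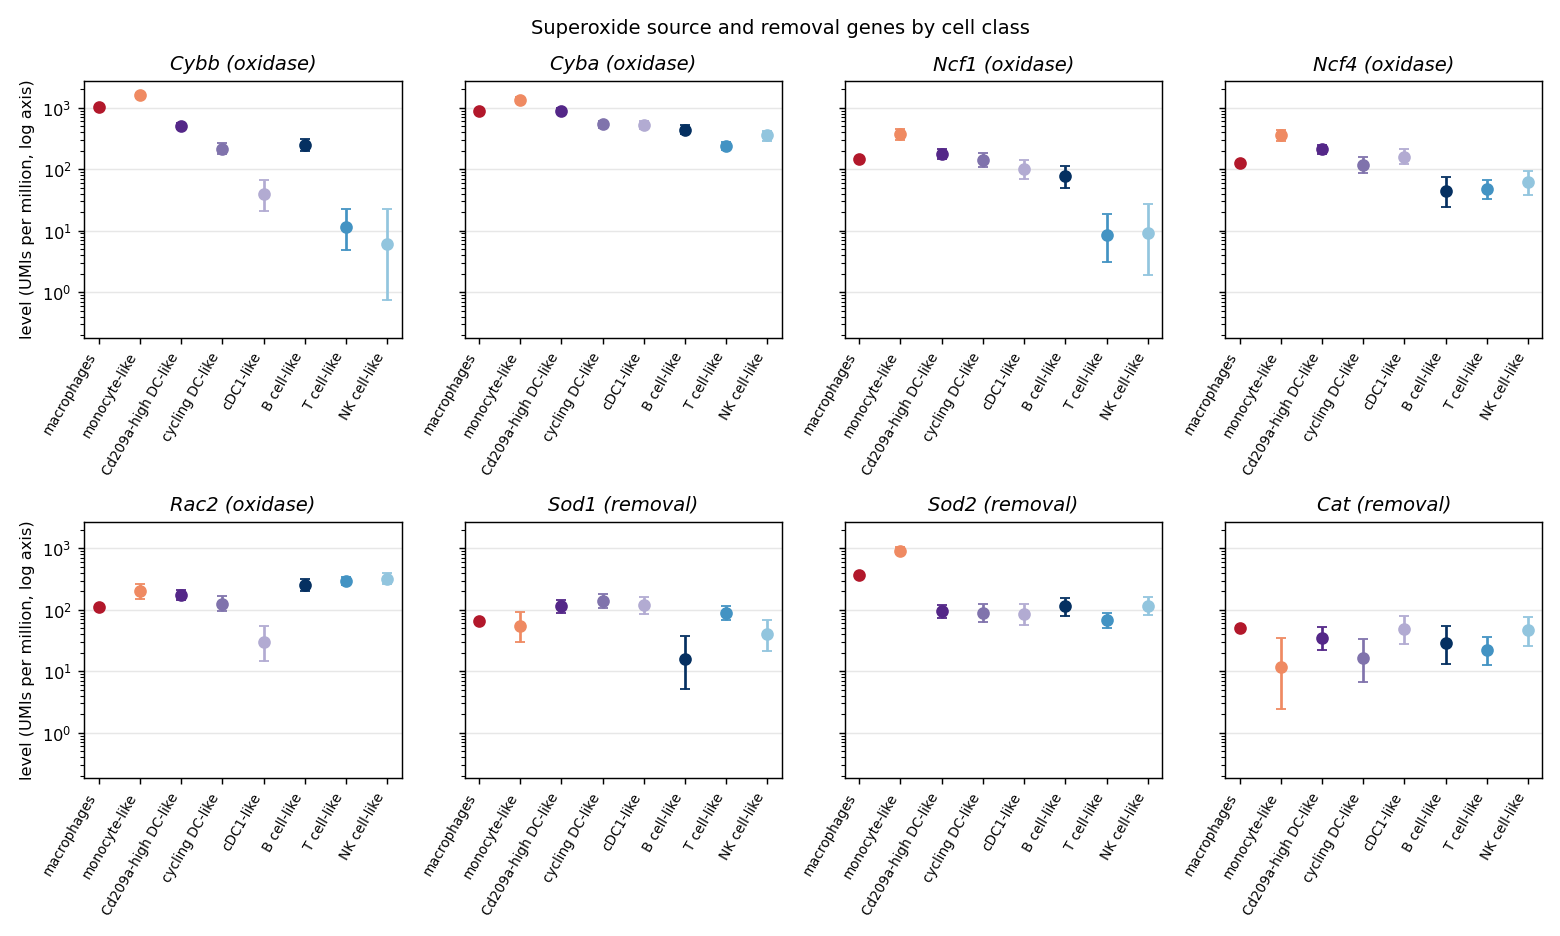
Level of each gene in CPM (log axis) in 8 cell classes of the 1 pooled sample, with points for summed UMIs and bars for exact Poisson 95% intervals of counting error. Cybb spans 1591 CPM in monocyte-like to 6.16 CPM in NK cell-like cells, Sod2 is high in macrophages and monocyte-like cells alone among these classes, and Rac2 is higher in lymphocytes than in macrophages.

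Against dendritic cells the oxidase genes of macrophages differed less. Cybb was 3.36-fold higher (3.05 to 3.70), and Cyba (1.26), Ncf1 (0.970), Ncf4 (0.749) and Rac2 (0.891) were all within 1.5-fold. Sod2 was 4.10-fold higher (3.44 to 4.92) and Cat 1.57-fold higher (1.17 to 2.15), and Sod1 was lower, with 66.2 CPM in macrophages against 124 CPM in dendritic cells, a ratio of 0.533 (0.457 to 0.625). So 3 genes were higher and 1 was lower, where 27.4% of 13048 genes were higher, 29.3% were lower and 56.6% passed 1.5-fold either way. The split was 2 higher and 3 lower for mean UMIs per cell, and 4 higher and 0 lower with median-of-ratios scaling. The Cat call was the least firm of these, since Cat stayed past 1.5-fold in 12 of 18 other settings.

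**Figure D2:**
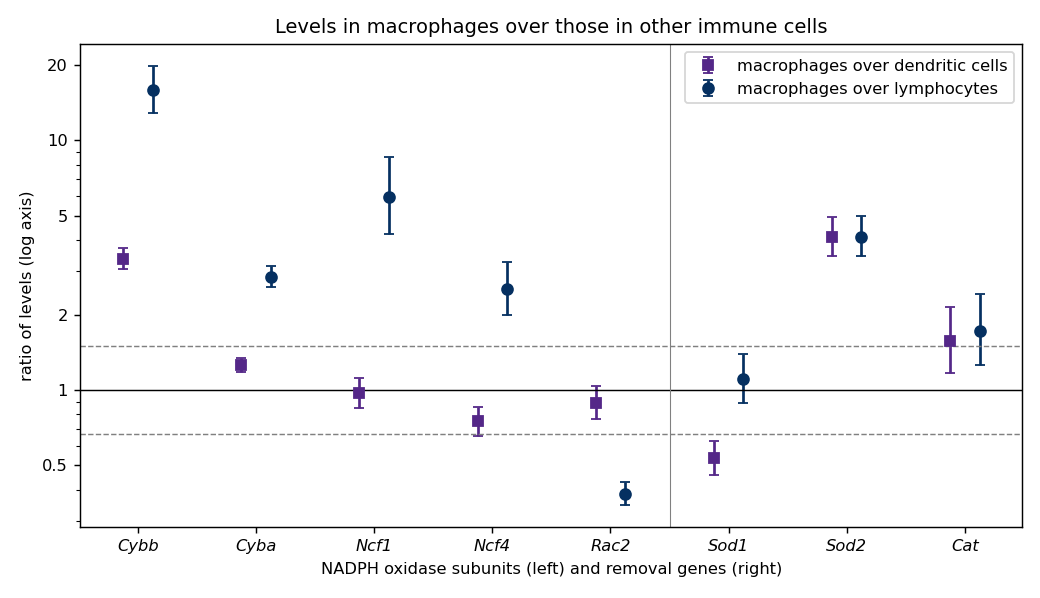
Ratio of levels (log axis) for macrophages over dendritic cells (squares) and over lymphocytes (circles), with exact conditional binomial 95% intervals of counting error and dashed lines at 1.5-fold either way. Cybb and Sod2 lie above the upper line in both comparisons, Rac2 lies below the lower line against lymphocytes (0.385), and Sod1 lies below it against dendritic cells (0.533).

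The dendritic cells were themselves divided by the oxidase genes. The cDC1-like cells had 39.3 CPM of Cybb (13 UMIs in 12 cells) against 506 CPM in Cd209a-high cells (331 UMIs in 28 cells), a ratio of 0.0777 (0.0409 to 0.135). Rac2 showed the next lowest ratio, with 30.3 CPM in cDC1-like and 174 CPM in Cd209a-high cells (0.173, interval 0.0810 to 0.331). Cyba (0.592) and Ncf1 (0.563) were also lower in cDC1-like cells, and Ncf4 (0.765), Sod1 (1.05), Sod2 (0.893) and Cat (1.38) were within 1.5-fold. That made 4 lower and 0 higher of 8, where 25.2% of 5361 genes were lower, 16.3% were higher and 41.5% passed either way. Cybb in cDC1-like cells stood at 3.79% of its macrophage level, where C1qa, C1qb and C1qc, which also chose the classes, stood at 0.660% to 1.73%. Macrophage genes that did not choose them spread widely there. Csf1r stood at 0%, Apoe at 1.08%, Adgre1 at 2.54%, Ctss at 12.1%, Lyz2 at 28.3% and Cd68 at 28.5%. The part of free macrophage RNA in the Cybb of cDC1-like cells was not tested. Against dendritic cells without the Cd209a-high ones, the ratio of Cybb in macrophages was 7.47, and Cyba, at 1.66, then passed 1.5-fold.

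Monocyte-like cells exceeded macrophages in all 5 oxidase genes and in Sod2. For macrophages over monocyte-like cells the ratios were 0.652 for Cybb, 0.662 for Cyba, 0.393 for Ncf1, 0.359 for Ncf4 and 0.558 for Rac2, and 0.408 for Sod2 (372 against 912 CPM). Sod1 was within 1.5-fold (1.198), and Cat was 4.33-fold higher, but on 3 UMIs in monocyte-like cells (interval 1.48 to 21.0). In this comparison 26.3% of 12955 genes were lower, 43% were higher and 69.4% passed either way. The monocyte-like cluster was 17 cells and also carried 4 of 8 neutrophil markers (S100a8, S100a9, Retnlg and Csf3r). The part of these markers in the result was not tested.

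The summed mRNA of the source genes exceeded that of the removal genes in every named immune class, but by differing factors. The factor was 1.80 in ILC2-like, 3.35 in T cell-like, 4.72 in macrophages, 6.68 in B cell-like and 8.04 in Cd209a-high dendritic-like cells. Such sums add genes whose capture may differ, so only the comparison of classes is meaningful. The 5 oxidase genes made up 82.5% of the UMIs of the 8 genes in macrophages (84151 of 101997 UMIs, 95% interval 82.3 to 82.7%), 80.5% in lymphocytes (78.2 to 82.7%) and 85.5% in dendritic cells (84.0 to 86.9%). Within these classes the share was 88.9% in Cd209a-high dendritic-like, 87.0% in B cell-like, 82.2% in cycling dendritic-like, 78.8% in NK cell-like, 77.2% in cDC1-like and 77.0% in T cell-like cells, and monocyte-like cells had 79.7%. The 8 ILC2-like cells had the lowest immune share, 64.3% (50.4 to 76.6%, 36 source and 20 removal UMIs). The shares did not rest on the same genes. T cell-like cells held 209 Rac2, 168 Cyba and 8 Cybb UMIs among their 425 source UMIs. The summed levels differed too. Macrophages had 2309 CPM of source and 490 CPM of removal genes, lymphocytes 744 and 180 CPM, and dendritic cells 1459 and 248 CPM. Outside the immune cells the source share was 40.0% in endothelial-like cells (29.8 to 50.9%, 90 UMIs) and 19.9% in endocrine-like cells (15.4 to 25.1%, 276 UMIs).

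**Figure D3:**
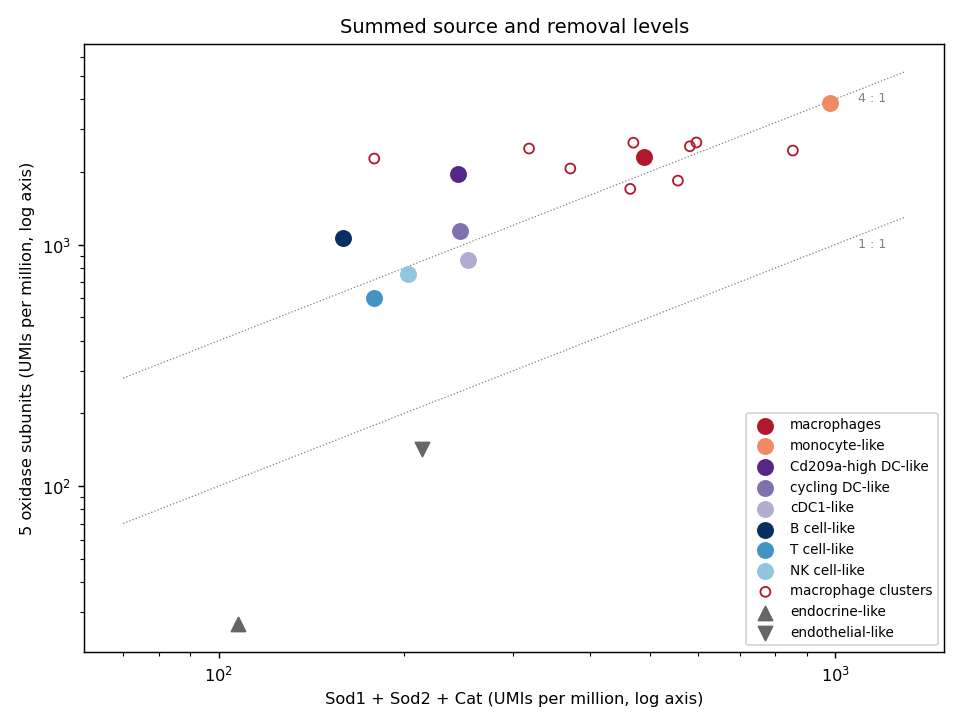
Summed level of the 5 oxidase genes against that of Sod1, Sod2 and Cat (CPM, both axes log), with filled points for cell classes, open circles for the 9 macrophage clusters and dotted lines at equal and 4-fold levels. Macrophages (2309 and 490 CPM) and monocyte-like cells (3854 and 979 CPM) lie far along the 4-fold line, and endocrine-like and endothelial-like cells lie below the line of equal levels.

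The wider oxidase machinery was read from fixed lists. The list of 10 genes of the NOX2 complex and its partners includes the 5 oxidase genes above. Of the 10, 6 were higher in macrophages than in lymphocytes (Cybb, Cyba, Ncf1, Ncf4, Nrros and Hvcn1). Another 2 were lower (Rac2 and Cybc1) and 2 were within 1.5-fold, with a median log2 ratio of 0.84. Beyond the members, only Nrros and Hvcn1 were higher, and Cybc1 was lower. Among all genes 26.4% were higher and 49.2% were lower, with a median of -0.56. Hvcn1, the proton channel that balances the charge NOX2 moves, was 1.71-fold higher, and Cybc1, a chaperone of the Cybb protein, was lower at 15.5 CPM in macrophages against 25.9 CPM in lymphocytes. Against dendritic cells 2 of the 10 were higher (Cybb and Hvcn1) and 1 was lower, Nrros, a negative regulator of NOX2 (116 against 353 CPM). The median was -0.09, against -0.13 over all genes, of which 27.4% were higher and 29.3% lower. All 6 genes that supply NADPH, the electron donor, were higher in macrophages than in lymphocytes, with Pgd at 244 against 25.9 CPM (9.43-fold) and G6pdx at 52.7 against 14.1 CPM (3.75-fold), and 4 of the 6 were higher than in dendritic cells.

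Other oxidases and the enzymes that follow the dismutases gave less uniform pictures. Of 9 genes of other NADPH oxidases, 8 had too few UMIs to compare and Nox1 was lower, with 1.70 CPM in macrophages against 8.89 CPM in lymphocytes. Sod3, the extracellular dismutase, had 1 UMI in all macrophages. Ccs, the copper chaperone of Sod1, was within 1.5-fold against lymphocytes (0.882) and dendritic cells (1.01). Of 8 genes that reduce hydrogen peroxide, 4 were higher than in lymphocytes and 3 were lower. Prdx1 was 13.8-fold higher (4727 against 342 CPM) and Gpx1 4.28-fold higher (381 against 88.9 CPM), while Prdx6 was lower (102 against 378 CPM). Of 9 kinases and exchange factors upstream of NOX2, 4 were higher (Prkcd, Prkcb, Vav1 and Vav3) and 4 were lower (Pak1, Pik3cg, Arhgdib and Dock2). These counts against lymphocytes stand beside 26.4% of all genes higher and 49.2% lower.

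Other features differed between the classes too. Of 10 genes of the response to tissue dissociation, 8 were higher in macrophages than in lymphocytes and 6 were higher than in dendritic cells, with none lower, against 26.4% and 27.4% of all genes higher. Of 8 NF-kB response genes 4 were higher in each comparison, 1 was lower against lymphocytes (Tnfaip3) and 2 were lower against dendritic cells (Nfkbia and Relb). The 6 abundant macrophage genes used to gauge free RNA stood in lymphocytes at 0.753% (Lyz2) to 3.13% (Ctss) of their macrophage level. The part of dissociation and NF-kB responses in the levels of the 8 genes was not tested.

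Within macrophages, Sod2 varied most, Ncf1 and Ncf4 varied less, and the other 5 genes spanned under 2-fold. Over 9 clusters, built without the 8 genes, Sod2 ran from 76.6 CPM in cluster 13 to 740 CPM in cluster 9, a 9.66-fold span. Ncf1 spanned 4.01-fold (53.9 to 216 CPM) and Ncf4 2.36-fold (84.3 to 199 CPM). The lowest Sod2 and Ncf1 levels both came from the 28 cells of cluster 13, on 27 and 19 UMIs. The next lowest were 221 CPM of Sod2 in cluster 4 and 97.2 CPM of Ncf1 in cluster 6. The size of both spans, and the larger span of Ncf1 than of Ncf4, thus rested on cluster 13. Cyba (633 to 1264 CPM), Cat (41.3 to 77.3 CPM), Cybb (774 to 1426 CPM), Rac2 (81.8 to 141 CPM) and Sod1 (51.5 to 88.3 CPM) had the narrower spans. These spans are a description, since clusters are states found in the same cells and not replicates.

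Cluster 9 (79 cells, led by Tnfsf9, Pdpn and Il10) had the highest Sod2 and, with 74.2%, the lowest source share of the 9 clusters. Its 8 NF-kB response genes summed to 14962 CPM, the highest of the 9, but the order was not the same throughout. Cluster 7 (121 cells, led by Gpnmb) had the lowest NF-kB sum, 4382 CPM, and 464 CPM of Sod2, above the 224 and 221 CPM of clusters 1 and 4. Cluster 7 also had the highest Cyba (1264 CPM). Cluster 13 had the lowest Sod2, Ncf1 and Cyba and the highest source share, 92.7%. It held 28 cells at a median of 12716 RNA UMIs, under the 17862 to 27574 of the other 8, and the most islet hormone mRNA (6542 CPM). The part of its low depth and hormone mRNA in these levels was not tested.

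Cybb and the cytosolic subunits peaked in different macrophages. Cybb was highest in cluster 0 (1426 CPM, 354 cells), which was led by the interferon-induced genes Ifit3 and Ifit2, whereas Ncf1 (140 CPM), Ncf4 (105 CPM) and Rac2 (113 CPM) there were near or under the levels of all macrophages. Ncf4 was highest in cluster 1 (199 CPM, led by Arhgap45 and Myo1f) and Ncf1 in cluster 3 (216 CPM, led by Il12b and Cd207), where Rac2 was highest too (141 CPM). Clusters 2 (led by Hspa1b and Hspa1a) and 6 (led by Gclc and Hmox1) had the lowest levels of Cybb (774 and 803 CPM) and of Ncf4 (84.3 and 89.5 CPM), and the highest of Sod1 (85.8 and 88.3 CPM). The dissociation genes summed to 14959 and 6877 CPM in them and to between 1574 and 4372 CPM in 6 other clusters, but cluster 13 had 8276 CPM of them with 1396 CPM of Cybb and 56.8 CPM of Sod1. The part of the dissociation response in these levels was not tested. Cat was highest in cluster 4 (77.3 CPM, led by Slc40a1 and Pparg). Over the 9 clusters the Pearson correlation of log2 levels was 0.84 between Cyba and Ncf4 and between Cyba and Rac2, and -0.09 between Cybb and Cyba, all from clusters of 1 library.

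**Figure D4:**
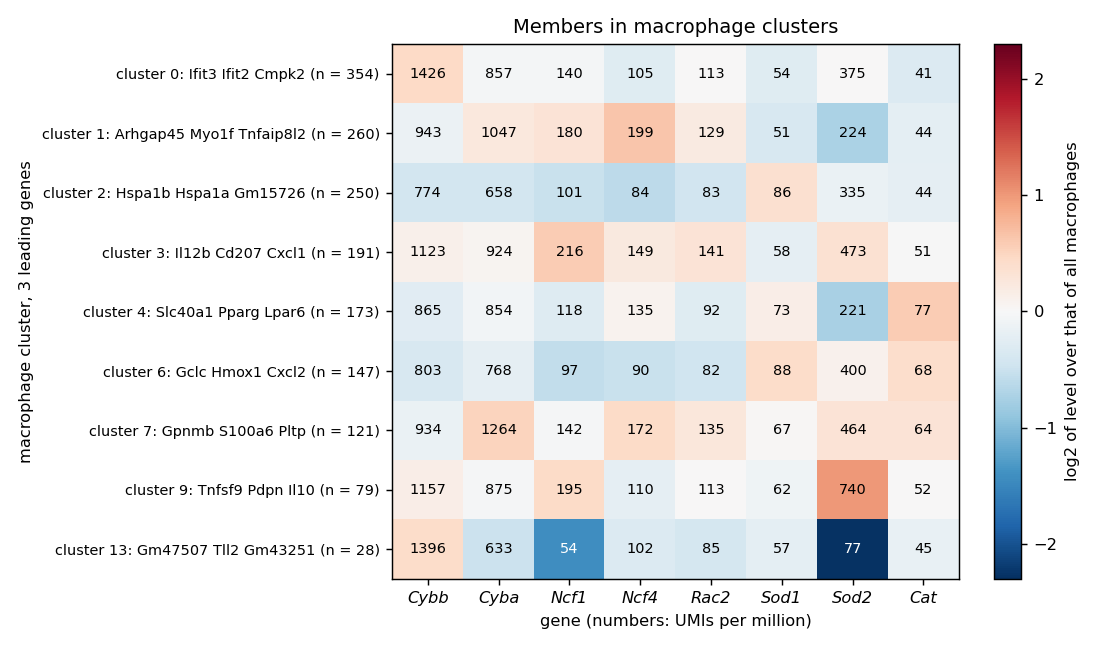
Levels of the 8 genes in 9 macrophage clusters, with CPM printed in each cell and colour for the log2 ratio to the level of all macrophages; rows name the 3 leading genes and the number of cells. Sod2 runs from 76.6 CPM in cluster 13 to 740 CPM in cluster 9, while Cybb stays between 774 and 1426 CPM.

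Surface CD9 was a second axis along which macrophages were ordered. The 1792 macrophages were ranked by CD9 tags among cells of like RNA depth and cut into 10 ranges, whose mean tag count ran from 30.3 UMIs per cell in the lowest to 6950 in the highest. Median depth was matched, with 20138 RNA UMIs in the highest and 20217 in the lowest range, but the sums were not, with 3865517 RNA UMIs over 172 cells in the highest and 3545415 over 180 cells in the lowest. Cd9 mRNA went with the tag. It had 420 CPM in the highest range and 11.8 CPM in the lowest, a span of 35.5-fold.

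Along CD9 the 8 genes were nearly level. Ncf4 alone passed 1.5-fold, and only just, with 149 CPM (576 UMIs) in the highest range against 99.0 CPM (351 UMIs) in the lowest, a ratio of 1.505 (1.32 to 1.72). It was over 1.5-fold in 8 of 18 other settings, and 0.927 once cells were thinned to 3000 UMIs. The 8 include a minimum of 100 UMIs and no minimum, which could not change the ratio. Rac2 (131 against 97.9 CPM, 1.34), Cyba (963 against 801 CPM, 1.203), Sod2 (372 against 348 CPM, 1.07), Ncf1 (1.03), Sod1 (68.6 against 68.5 CPM), Cat (0.897) and Cybb (986 against 1206 CPM, 0.818) were within 1.5-fold. That made 1 higher and 0 lower of 8, where 18.2% of 10004 genes were higher, 8.7% were lower and 26.9% passed 1.5-fold either way. The intervals of Sod1 (0.837 to 1.195), Sod2 (0.991 to 1.16) and Cat (0.728 to 1.11) leave out a difference of 1.5-fold as far as counting error goes.

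The small differences were not steady steps. Cybb had 1206, 1010, 1089, 1084, 1006, 972, 998, 1002, 1034 and 986 CPM from the lowest to the highest range, so its excess lay in the lowest range. Ncf4 had 99.0 CPM in the lowest range, between 115 and 131 CPM in the next 7, and 150 and 149 CPM in the last 2. Sod2 stayed between 344 and 402 CPM and Sod1 between 57.8 and 72.4 CPM. Cyba had the highest rank correlation with the range (Spearman correlation 0.84 over 10 ranges of 1 library), from 801 CPM in the lowest to 1041 CPM in the ninth. The source share stayed between 81.7 and 83.3% in all 10 ranges.

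The ranges differed in which clusters they held. Cluster 1, where Ncf4 was highest, made up 26.7% of the highest range and 7.78% of the lowest, and cluster 7, where Cyba was highest, 14.5% and 0%. Clusters 3, 4 and 6 ran the other way, each with at most 4.07% of the highest range and at least 15.6% of the lowest. When each cluster was split at the middle of its CD9 ranking and the upper cells were set over the lower, no cluster had a ratio past 1.5-fold for Cybb, Cyba, Ncf4, Sod1, Sod2 or Cat. Ncf4 was above 1 in 6 of 9 clusters and 0.925 in cluster 1 itself. The exceptions, Ncf1 (2.44) and Rac2 (0.443), came from the 28 cells of cluster 13, and their intervals (0.894 to 6.98 and 0.148 to 1.11) included 1.

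**Figure D5:**
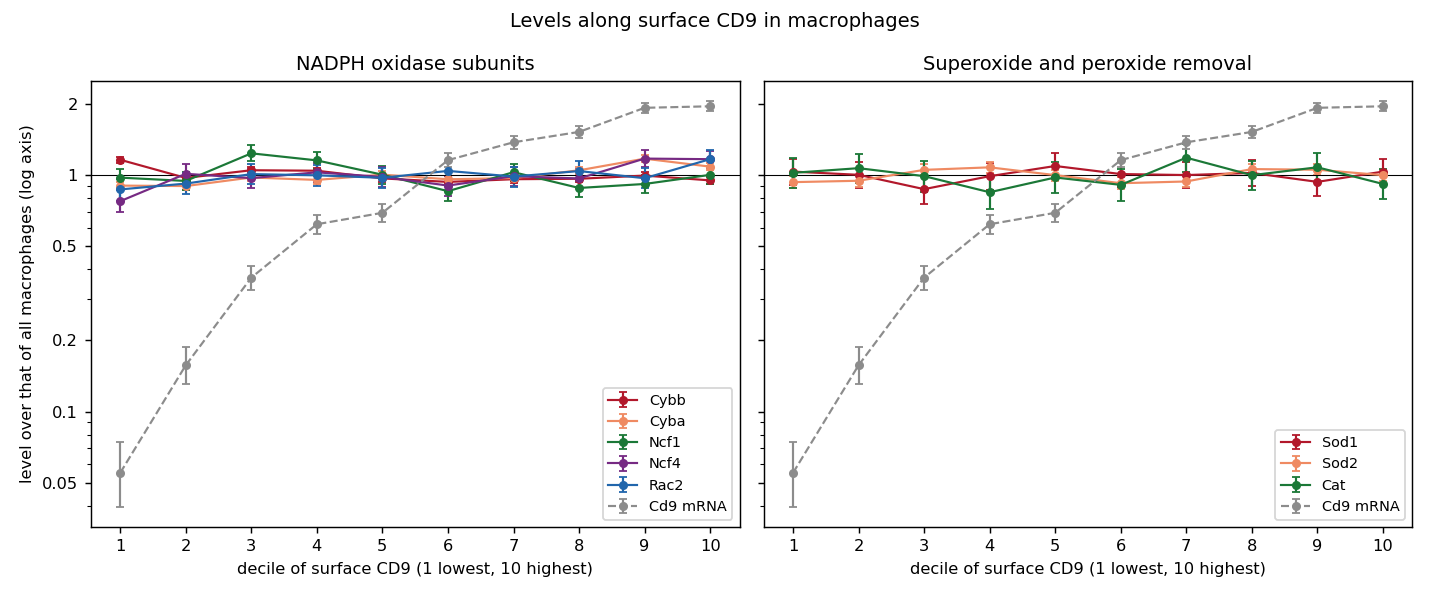
Level of each gene over its level in all macrophages (log axis) in 10 ranges of surface CD9 from lowest to highest, with oxidase genes on the left, removal genes on the right, Cd9 mRNA dashed in both, and bars for exact Poisson 95% intervals. Cd9 mRNA climbs 35.5-fold, while Sod2 stays between 344 and 402 CPM and Cybb between 972 and 1206 CPM.

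The lists around the 8 genes were in part level along CD9. Among all genes 18.2% were higher and 8.7% were lower in the highest range. Of the 10 NOX2 genes only Ncf4 passed 1.5-fold. Of the 8 peroxide reductases 4 were higher in the highest range (Prdx2 1.66-fold, Prdx4 1.91-fold, Prdx5 1.501-fold and Prdx6 1.93-fold), with a median log2 ratio of 0.54 against 0.10 over all genes. Of the 6 NADPH supply genes, Me1 was lower, on 6 and 20 UMIs. Of 10 dissociation genes 4 were lower in the highest range (Egr1, Atf3, Hspa1a and Hspa1b), and their list summed to 3694 CPM in the highest and 5079 CPM in the lowest range. Of 3 measured genes among other superoxide and peroxide makers 2 were higher, Xdh (1.60-fold) and Il4i1 (3.67-fold, on 60 and 15 UMIs), with a median log2 ratio of 0.68. Of the 9 upstream kinases and exchange factors Pik3cg was higher (2.05-fold) and Prkcb lower (0.5997), and of 8 NF-kB genes Tnf and Cxcl2 were lower. The NF-kB list summed to 6864 CPM in the highest and 9631 CPM in the lowest. Sod2 did not differ past 1.5-fold beside them.

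For each gene, the 3 most similar profiles over the 15 clusters of at least 20 cells were read among 7052 genes, as Pearson correlations of log2 levels within 1 library. Cybb was closest to Unc93b1 (0.96), Gm6377 (0.96) and Ctsz (0.96), Cyba to Chmp2b (0.97), Arpc4 (0.97) and Arpc1b (0.96), and Ncf1 to Evi2a (0.94), Arl5c (0.93) and H2-Aa (0.92). Ncf4 was closest to Emp3 (0.96), Tmsb4x (0.96) and Tkt (0.95), and Rac2 to Arhgdib (0.97), Hnrnpf (0.96) and Rbm22 (0.94). Sod2 was closest to Il1rn (0.92), Clec4e (0.91) and H2-M2 (0.91), Sod1 to Slc35b2 (0.92), Arrdc4 (0.90) and Tm2d2 (0.88), and Cat to Ptpre (0.94), Fermt3 (0.94) and Itgb2 (0.92). Between the members themselves the highest value was 0.90, for Cyba and Ncf1, and the lowest were 0.02 for Sod1 and Cat and 0.04 for Cybb and Sod1. Over the 10 CD9 ranges the closest profiles were Lacc1 for Cybb (0.90), Ndufa1 for Cyba (0.96), Sbds for Ncf1 (0.94), Asb8 for Ncf4 (0.96), Hfe for Rac2 (0.96), Nudt4 for Sod1 (0.93), Tmem243 for Sod2 (0.91) and Mob1b for Cat (0.92).

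Surface CD206 gave a further ordering of the macrophages. CD206 tags were sparse, with a median of 8 UMIs per macrophage against 549 for CD9, and the 2 tags went together over cells (Spearman correlation 0.51 over 1792 cells of 1 library). None of the 8 genes passed 1.5-fold between the highest and the lowest CD206 decile, where 9.69% of 10000 genes were higher, 7.7% were lower and 17.4% passed either way. Ncf4 differed most, with 151 CPM in the highest against 118 CPM in the lowest decile (1.28, interval 1.13 to 1.46), and Sod2 had 366 against 351 CPM (1.04). All 10 genes of the NOX2 list were within 1.5-fold, and Xdh, xanthine dehydrogenase, was the 1 gene of the other superoxide and peroxide makers that was higher.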

How the data were processed

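The authors deposited UMI counts for each gene and antibody tag in each barcode. Per the file headers they came from Cell Ranger 8.0.1, and per the submitters' processing notes the genome build was mm10. Barcodes were kept here if they showed 200 genes or more and mitochondrial UMIs did not exceed 10% (2215 of 2237). Scrublet's automatic threshold marked 7 cells (0.316%), too few to be trusted, so the 40 highest-scoring cells (0.8% per 1000 barcodes) were removed as doublets, leaving 2175. Clusters came from scanpy 1.11.5 and leidenalg 0.10.2 (2000 variable genes, 30 components, 15 neighbours, resolution 1), with the 8 genes, all listed genes, endocrine and acinar genes, Cd9 and Mrc1 left out (107 genes). Clusters were named from marker lists (at least 25% of cells with a UMI, at least 2-fold higher, at least 3 markers), thresholds set after the cells were seen, and the mixed T and NK and the dendritic clusters were split again. All class names mean "X-like", and shares may depend on these rebuilt names.

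UMIs were summed per class and scaled to 1000000 (CPM). Intervals (95%) are exact conditional binomial for a ratio, exact Poisson for a level and exact Clopper-Pearson for a share. Where a sum or a share was 0, a bound was taken from a floor of 3 counts in place of the exact interval. To compare shares of cells, each cell was thinned to 3000 UMIs. The ratio and ranking steps were tested on simulated data. Genes were named by a fixed rule: the 8 genes, the gene lists around them, and for each of the 8 the 3 genes of highest correlation over clusters and over CD9 ranges (log2 of CPM + 10, genes with at least 500 UMIs). Leading genes of macrophage clusters were read among genes found in at least 20% of a cluster's cells, leaving out endocrine genes. One gene of these lists is not reported here. The 8 genes and all lists were chosen with earlier results of these data known.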

Additional observations from a re-analysis of the deposited data

How the results depend on the processing

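The count of the 8 genes past 1.5-fold was recomputed under 18 settings for each comparison. The settings with a minimum of 100 UMIs and with no minimum could not change any value, since all sums of the 8 genes were over 100 UMIs. Agreement in these settings is therefore no support. For macrophages over lymphocytes it was 7 in 17 of them and 6 with each cell weighted equally, but its make-up changed to 7 higher and 0 lower for mean UMIs per cell and for median-of-ratios scaling, where Sod1 was 2.29 and 2.04. Cybb, Cyba, Ncf1, Ncf4 and Sod2 were higher in all 18, and Rac2 was under 1 in all 18 but within 1.5-fold for mean UMIs per cell and for median-of-ratios scaling. For macrophages over dendritic cells the count was 3 to 5 (2 higher and 3 lower for mean UMIs per cell, 4 higher and 0 lower with median-of-ratios scaling), Cybb and Sod2 were higher in all 18, and Sod1 was lower in 16. The CD9 count of 1 rested on Ncf4. It was 0 with a C1q threshold of 4000 CPM, with median-of-ratios scaling, with cells weighted equally, without the cell richest in the gene, with cells thinned to 3000 UMIs, with deciles of raw CD9 UMIs or of CD9 UMIs per RNA UMI, with terciles, with quintiles and within clusters, and 2 for mean UMIs per cell. Ncf4 turned to 0.927 after thinning, and the cause was not tested. Of 144 values per comparison, 27 moved beyond their counting interval for lymphocytes, 38 for dendritic cells and 24 for CD9, beside the Ncf4 value after thinning. Mean UMIs per cell and median-of-ratios scaling each multiply all 8 ratios of a comparison by 1 factor, so those moves are not separate for each gene. Thinned values were held against the interval at full depth, although thinning leaves fewer UMIs. The settings without cDC1-like and without Cd209a-high cells were chosen after the data were seen. No paired analysis was possible because the series holds 1 pooled sample. Depth limits Cat, Sod1 and the small classes most, where under 20 UMIs often carry a level.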

Other observations

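Il4i1, an amino acid oxidase that releases hydrogen peroxide, had 8.34 CPM in macrophages against 213 CPM in dendritic cells, and within dendritic cells 142 CPM in cDC1-like against 370 CPM in Cd209a-high cells. Il4i1 is also among the migratory dendritic markers used to describe these cells. Xdh had 545 UMIs in macrophages, a ratio of 0.249 over lymphocytes and of 0.0997 over monocyte-like cells, which had 150 CPM. The 8 ILC2-like cells held 0 UMIs of Cybb, Ncf1 and Ncf4, which allows up to 34.9 CPM each, and 186 CPM of Rac2 (16 UMIs).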
